A study of Homo sapiens with 45 samples.

Results

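Joint silencing of HMGA1 and FOXM1 was measured on 3 arrays of SUDHL6 cells, chosen by the treatment in their titles from 45 arrays in all. SUDHL6 is an established human cell line from a diffuse large B-cell lymphoma of germinal-centre type. The series silenced transcription factors singly and in pairs and is titled as a study of regulators of the transformation of follicular lymphoma. Every array was of SUDHL6 cells nucleoporated with siRNA pools (80 pmol of pool per the labels, with the amount of each pool in a pair not given in the sources used here), and total RNA was taken at 20 hours. The groups set side by side were siHMGA1+siFOXM1 (3 arrays), siHMGA1 alone (3), siFOXM1 alone (3), siHMGA1+siATF5 (3), the non-target pool given as a pair, siNT4+siNT4 (2), and the non-target pool alone, siNT4 (4). All of these belong to the first set of 30 arrays, and the 6 non-target arrays served together as the control. Each result is therefore from transient silencing in 1 cell line, and since the labels name no separate cultures behind the replicates, a p-value here covers only array-to-array spread, part of which may be technical.

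HMGA1 is a small chromatin protein of the high mobility group that binds AT-rich DNA and bends it, and it is abundant in embryonic and in many malignant cells. FOXM1 is a forkhead transcription factor of dividing cells. It binds, together with B-MYB and the MuvB complex, at promoters of genes for G2 and mitosis, many of which carry a short element called the cell cycle genes homology region (CHR). Cyclins, mitotic kinases, kinesins and kinetochore proteins are its best-known targets. In germinal-centre B cells, which divide rapidly, these mitotic genes are strongly expressed.

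The CHR letters are shown first because they mark the genes for which a FOXM1 effect is usually looked for. Among 59 genes of the 3 mitotic lists that were measured, 49 had a RefSeq promoter window (250 bases before to 50 after the start of a gene, build GRCh38.p14), with 63 windows in all. TTTGAA or TTTAAA, searched on both strands, was in 44 of these 63 windows (69.8%), against 24.0% of all 35116 windows and 17.1% of the windows of genes measured here. TTTAAA reads the same on both strands, and no overlap between the motifs was counted as more than 1 window. The 100 bases before the start site are given below for NEK2, the mitotic gene with the lowest change after joint silencing, and for 3 genes chosen as examples because the motif lies just before their start, with the motif in capitals.
NEK2, chr1:211675622-211675721, minus strand: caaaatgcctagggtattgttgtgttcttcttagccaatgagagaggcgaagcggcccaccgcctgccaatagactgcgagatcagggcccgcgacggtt
CCNB2, chr15:59105046-59105145, plus strand: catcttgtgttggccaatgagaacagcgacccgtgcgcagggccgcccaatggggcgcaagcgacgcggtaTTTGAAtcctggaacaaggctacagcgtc
PLK1, chr16:23678789-23678888, plus strand: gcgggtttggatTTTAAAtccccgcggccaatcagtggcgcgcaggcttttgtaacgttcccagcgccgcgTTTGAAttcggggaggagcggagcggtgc
CDC20, chr1:43358881-43358980, plus strand: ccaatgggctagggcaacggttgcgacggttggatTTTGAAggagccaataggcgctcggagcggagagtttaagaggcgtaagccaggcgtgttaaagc
In CCNB2 and in PLK1 the last match ended 23 bases before the start, and in CDC20 it ended 59 bases before it. The bases shown for NEK2 held 0 matches.

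HMGA1 transcript was strongly lowered by the pair of pools. Its log2 signal was 10.13, 10.28 and 10.20 on the siHMGA1+siFOXM1 arrays, against a lowest of 11.25, a median of 11.36 and a highest of 11.53 on the 6 non-target arrays. No pair array overlapped the controls, and the difference was many times the spread within either group (SD 0.07, n = 3, and 0.12, n = 6). The change was -1.17 on the log2 scale (SE 0.11, 95% interval -1.40 to -0.94), which leaves 44.5% of the control signal, with limma's adjusted p of 2.65e-09. Against the 2 siNT4+siNT4 arrays alone (11.25 and 11.28) the change was -1.06 (SE 0.15, adjusted p 4.70e-05, 47.9% of control), and this call was lost when the array that stands apart was kept in the fit (adjusted p 0.0656). The HMGA1 probe used is the brightest of 3 on the array. The other 2 lay at the lower limit of the scale and did not show the reduction, with differences of -0.04 and 0.21.

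HMGA1 also read low in siHMGA1 and siHMGA1+siATF5, the other groups set side by side here that received siHMGA1. The siHMGA1 arrays read 10.16, 9.73 and 9.73, so that replicate 1 overlapped the pair and the other two lay below it. The pair was 0.33 above siHMGA1 alone (SE 0.13, unadjusted p 0.0151, adjusted p 0.871), a difference that did not pass, with a 95% interval of 0.07 to 0.60. The siHMGA1+siATF5 arrays read 9.87, 9.94 and 9.83, all below the 3 siHMGA1+siFOXM1 arrays, with a difference of 0.33 (SE 0.13, adjusted p 0.264). Against siFOXM1 alone, where HMGA1 read 11.08, 11.23 and 11.56, the pair was 1.08 lower on the log2 scale (change -1.08, SE 0.13, adjusted p 1.46e-06).

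FOXM1 transcript was lower on every pair array than on any control, by a smaller amount that did not pass the test across all genes. It read 8.31, 8.26 and 8.34 on the siHMGA1+siFOXM1 arrays, against a lowest of 8.46, a median of 8.54 and a highest of 8.79 on the 6 non-target arrays. The groups did not overlap. The change was -0.27 (SE 0.08, 95% interval -0.43 to -0.10, unadjusted p 0.00245, adjusted p 0.417), or 83.2% of the control signal. Against siNT4+siNT4 alone it was -0.38 (SE 0.10, adjusted p 0.390).

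siFOXM1 given alone left FOXM1 at a similar reading. Its arrays read 8.36, 8.26 and 8.10, a change of -0.33 from the same controls (SE 0.08, adjusted p 0.0757), and the pair was 0.06 above siFOXM1 (SE 0.10, 95% interval -0.13 to 0.25, adjusted p 0.983). The siHMGA1 arrays, which did not receive the FOXM1 pool, read 8.63, 8.41 and 8.40 (change -0.09, SE 0.08, adjusted p 1.00). Replicate 1 lay within the range of the controls and replicates 2 and 3 just below it. On siHMGA1+siATF5 replicate 2 FOXM1 also read below the controls, at 8.40, with replicates 1 and 3 within their range. A second, dimmer FOXM1 probe was at -0.11 in the pair and overlapped the controls there. FOXM1 protein was not measured here.

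**Figure D1:**
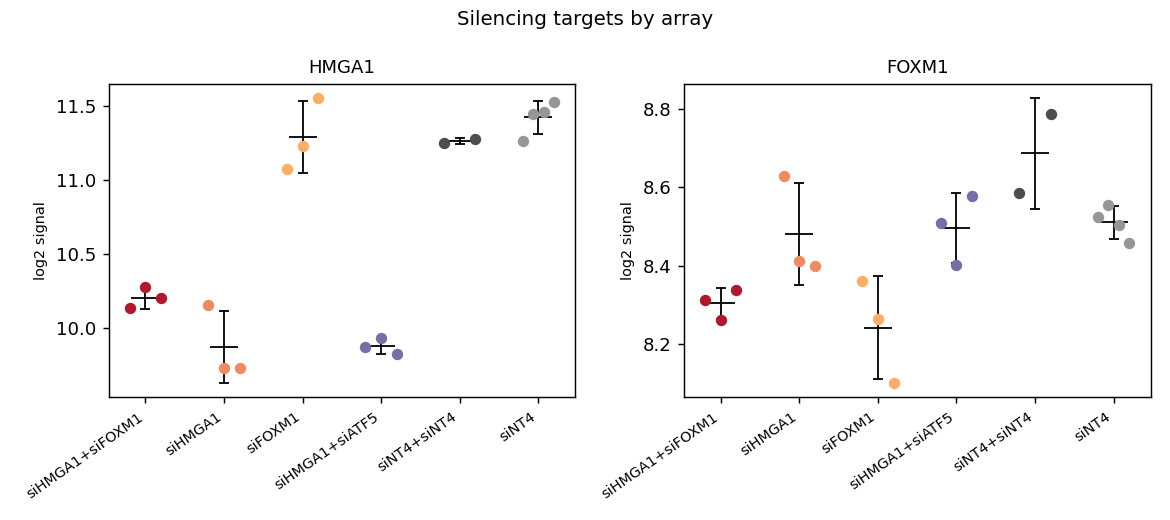
Log2 signal (vertical axis) of HMGA1 and FOXM1 on each array of 6 groups, with bars for the mean and SD of each group. HMGA1 lies between 10.13 and 10.28 on the siHMGA1+siFOXM1 arrays and between 11.25 and 11.53 on the non-target arrays, whereas FOXM1 lies between 8.26 and 8.34 and between 8.46 and 8.79.

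Beyond its target HMGA1, the joint silencing moved no gene past the threshold. Of 8270 genes measured above background, 1 was called against the 6 non-target arrays (0.0121%), and that was HMGA1, lower. At an unadjusted p under 0.05, 670 genes (8.1%) differed. The changes were 3970 positive and 4300 negative, with a median of -0.01 log2, and their median size of 0.08 was below their median standard error of 0.10. No other gene changed by more than 0.5 log2 in either direction. Against siNT4+siNT4 alone, HMGA1 was again the 1 gene called (0.0121%), with 699 genes (8.45%) at an unadjusted p under 0.05. On 216 genes (2.61%) the 3 pair arrays lay outside the range of the 6 controls, 93 above it (1.12%) and 123 below it (1.49%).

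**Figure D2:**
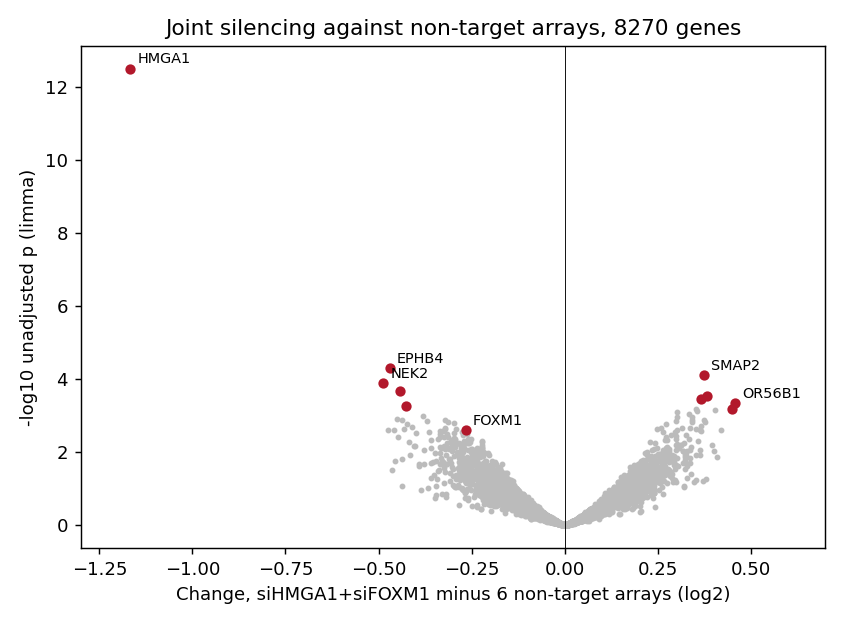
Change in log2 signal, siHMGA1+siFOXM1 minus the 6 non-target arrays (horizontal axis), against -log10 of limma's unadjusted p (vertical axis) for 8270 genes, with the genes named in the text for this comparison in red. HMGA1 at -1.17 stands alone, and the next genes, EPHB4, NEK2 and SMAP2, lie within the upper edge of the cloud.

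The gene next to HMGA1 by p was EPHB4, which encodes a receptor tyrosine kinase for ephrin-B2. It read 7.25, 7.18 and 7.74 on the siHMGA1+siFOXM1 arrays, against a lowest of 7.78, a median of 7.88 and a highest of 7.92 on the non-target arrays. All pair arrays lay below the controls, replicates 1 and 2 by much more than replicate 3. The change of -0.47 (SE 0.10) had an adjusted p of 0.209. EPHB4 also had one of the 3 smallest p-values against siHMGA1 alone (7.96, 7.89 and 7.89), with a change of -0.52 (SE 0.12, adjusted p 0.254).

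NEK2, a kinase that separates the centrosomes before mitosis and a known FOXM1 target, had the most negative change of all mitotic genes. It read 9.21, 8.82 and 9.51 on the pair arrays, against a lowest of 9.47, a median of 9.65 and a highest of 9.87 on the non-target arrays. Replicates 1 and 2 lay below every control and replicate 3 among them. The change was -0.49 (SE 0.12, adjusted p 0.267), and -0.65 against siNT4+siNT4 (SE 0.15, adjusted p 0.195).

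The same gene fell after silencing FOXM1 alone. NEK2 read 9.15, 8.80 and 9.03 on the siFOXM1 arrays, a change of -0.68 from the 6 controls (SE 0.12, adjusted p 0.00521), 1 of 8 genes called for siFOXM1 (0.0967%), of which 6 were higher (0.0726%). On the siHMGA1 arrays it read 9.21, 9.81 and 9.84, a change of -0.05 (SE 0.12, adjusted p 1.00), with replicate 1 far below the other two. The pair stood 0.19 above siFOXM1 (SE 0.13, 95% interval -0.08 to 0.46, adjusted p 0.922) and -0.44 from siHMGA1 (SE 0.13, unadjusted p 0.00222, adjusted p 0.871). These comparisons share the same 6 control arrays. A second, dimmer NEK2 probe was at 0.05 in the pair.

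SMAP2, which encodes an Arf GTPase-activating protein of the trans-Golgi network, was the leading gene on the other side. It read 9.99, 9.81 and 9.99 on the siHMGA1+siFOXM1 arrays, against a lowest of 9.43, a median of 9.55 and a highest of 9.67 on the non-target arrays. All 3 lay above all 6. The change of 0.37 (SE 0.09) had an adjusted p of 0.213, and it passed with quantile normalization of the deposited values (0.38, adjusted p 0.0488) and with the percentage of probes above background added as a covariate (0.40, adjusted p 0.0476). SMAP2 rose by 0.43 in siHMGA1 (adjusted p 0.0401, 1 of 2 genes called there, 0.0242%, with 213 genes or 2.58% at an unadjusted p under 0.05) and by 0.46 in siFOXM1 (adjusted p 0.0135), so that its readings in each single silencing overlapped those of the pair. On the siHMGA1+siATF5 arrays it read 10.12, 10.00 and 9.82, also above every control. Its second, dimmer probe was at 0.07 in the pair and overlapped the controls.

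The remaining genes of smallest p also failed the test. KCTD10, an adaptor of a cullin ubiquitin ligase, read 8.63, 8.43 and 8.28 on the pair arrays, against 7.91 to 8.32 on the controls (change 0.38, SE 0.10, adjusted p 0.394). MPST, a sulfurtransferase that produces hydrogen sulfide from cysteine products, read 7.95, 8.33 and 7.65, against 7.42 to 7.67 (0.45, SE 0.12, adjusted p 0.417). In both genes replicate 3 was the lowest of the 3 and fell within the range of the controls. OR56B1, an odorant receptor gene, read 7.74, 7.92 and 7.13, against 7.06 to 7.32 (0.46, adjusted p 0.417), and the pseudogene CLUHP3 read 7.56, 7.78 and 7.40, against 7.08 to 7.40 (0.36, adjusted p 0.414). The small nucleolar RNA SNORD12B read 6.91, 6.90 and 7.20, against 7.23 to 7.65 (-0.44, adjusted p 0.345), and DLEU2L read 6.90, 6.87 and 7.22, against 7.16 to 7.64 (-0.43, adjusted p 0.417). OR56B1, CLUHP3, SNORD12B and DLEU2L lay near the lower limit of the scale, where array medians were 6.96 to 6.98.

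In most of these genes replicate 3 differed from replicates 1 and 2. Across the 8270 genes, the differences of replicates 1 and 2 from the control mean correlated at r = 0.39, and those of replicate 3 with theirs at -0.09 and -0.12. These values describe genes, which are not independent replicates, and the 3 arrays share the same control mean. The mean size of the difference per gene was 0.164, 0.171 and 0.109 log2 on pair replicates 1, 2 and 3, taken from the mean of all 6 controls. It was 0.113 to 0.143 on the 6 non-target arrays, each taken from the mean of the other controls. Replicate 3 was thus slightly nearer to the control mean than any control array was to a mean of fewer arrays. Its HMGA1 and FOXM1 readings matched those of replicates 1 and 2. The share of probes above background was 25.1% to 26.8% on the pair arrays and 25.2% to 25.9% on the controls. The median correlation with the other arrays was 0.985, 0.985 and 0.991 on pair replicates 1, 2 and 3, against 0.988 to 0.992 on the controls. It was 0.987, 0.992 and 0.990 on siHMGA1 replicates 1 to 3, and 0.986, 0.979 and 0.990 on siFOXM1 replicates 1 to 3. The highest signal on an array was 16.08, 15.89 and 15.26 on pair replicates 1 to 3. It was 15.91, 15.78, 15.42 and 15.43 on siNT4 replicates 1 to 4, and 15.52 and 15.49 on siNT4+siNT4. On siHMGA1 replicates 1 to 3 it was 15.74, 15.27 and 15.63, and on siFOXM1 15.95, 15.75 and 15.57. The labels name no batch. Whether array quality or a batch lies behind the difference of replicate 3 was not tested.

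Without replicate 3 the comparison gave 77 calls in place of 1 (0.931%), 30 higher (0.363%) and 47 lower (0.568%). Their median size was 0.54 log2 in replicates 1 and 2 and 0.10 in replicate 3, which had the same sign in 33 of the 77. Of these genes, 4 belonged to the gene lists below, which hold 688 entries, some repeated and not all measured. The share called over all genes was 0.931%, and the lists were not tested against it. HMGA1 was at -1.17, NEK2 at -0.65 (adjusted p 0.00682) and BTK, the kinase downstream of the B-cell receptor, at -0.50 (adjusted p 0.0304, and 0.491 with all 3 arrays). MYC, the growth-promoting transcription factor, was at 0.40 (adjusted p 0.0427), with 12.23 and 12.37 on pair replicates 1 and 2, 11.72 on replicate 3, and 11.75 to 12.03 on the controls. With all 3 arrays MYC was at 0.20 (adjusted p 0.612). Which of the arrays represents the silencing was not tested. Pair replicates 1 and 2 were also set against siNT4 replicates 1 and 2 only. All 77 genes kept their sign there, with a median size of 0.43 log2, and HMGA1 was the 1 gene called. With replicate number as a block, 27 genes were called without replicate 3, and 1 with all 3. Under that block without replicate 3, NEK2 kept its call, while BTK (-0.45, adjusted p 0.0725) and MYC (0.36, adjusted p 0.119) lost theirs. Both of these settings without replicate 3 were chosen after seeing the data.

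**Figure D3:**
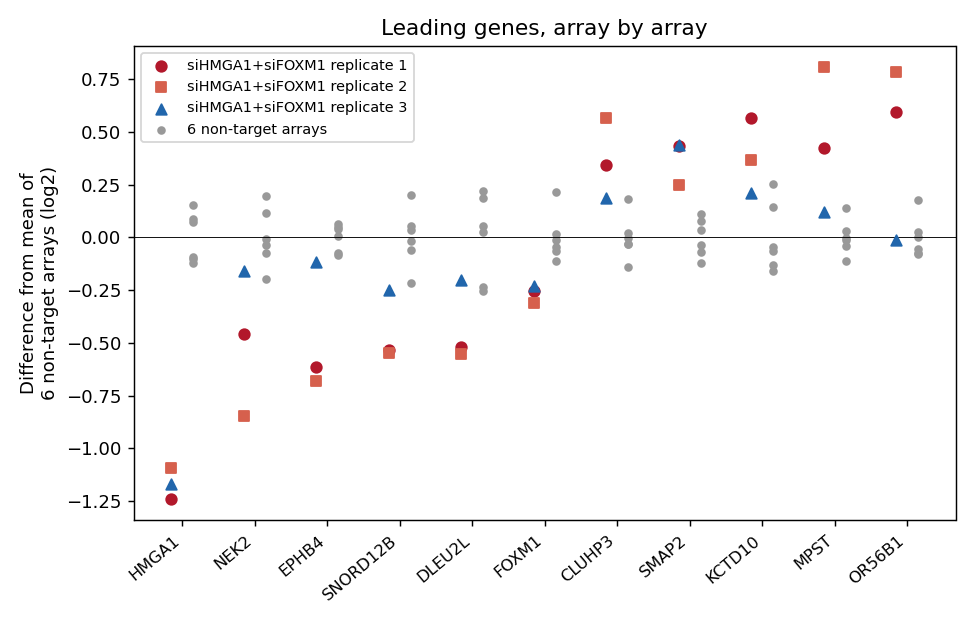
Difference of each array from the mean of the 6 non-target arrays (vertical axis, log2) for the genes of smallest p and FOXM1, with the 3 siHMGA1+siFOXM1 arrays as coloured symbols and the non-target arrays in grey. The triangles of replicate 3 lie with the other two for HMGA1, FOXM1 and SMAP2 and nearer to 0 for the other genes.

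No mitotic gene passed the threshold, and the list medians were near 0. Of 18 mitotic cyclins, kinases and phosphatases measured, 0 passed limma's threshold in either direction, 12 had a positive and 6 a negative change, and the median was 0.04 log2. The list medians were 0.06, -0.06 and 0.12 on the pair arrays, against -0.16 to 0.11 on the non-target arrays, and so overlapped. Of 18 kinesins and spindle proteins 0 passed (7 positive, 11 negative, median -0.01), and of 23 centromere and anaphase proteins 0 passed (17 positive, 6 negative, median 0.05). The median over all genes was -0.01, with 1 of 8270 called.

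Single mitotic genes pointed both ways. AURKB, the kinase of the chromosomal passenger complex, read 9.49, 9.42 and 9.45 on the pair arrays, against 9.09 to 9.49 on the controls (0.15, adjusted p 0.728). SKA1, which couples kinetochores to microtubules, read 8.17, 8.19 and 8.17, against 7.70 to 8.05 (0.27, adjusted p 0.488), above all controls. CDCA3, which triggers degradation of WEE1, read 9.74, 10.01 and 9.78, against 9.40 to 9.74 (0.27, adjusted p 0.504). KIFC1, a minus-end kinesin that clusters spindle poles, was at 0.19 (adjusted p 0.588), and SKP2, the F-box protein that targets p27, at -0.20 (adjusted p 0.593). Of the genes whose promoters are shown above, CCNB2 was at -0.01, PLK1 at 0.11 and CDC20 at 0.10. The 39 mitotic genes with the CHR letters had a median change of 0.01 (21 positive, 18 negative), and the 10 without them 0.07 (6 positive, 4 negative).

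**Figure D4:**
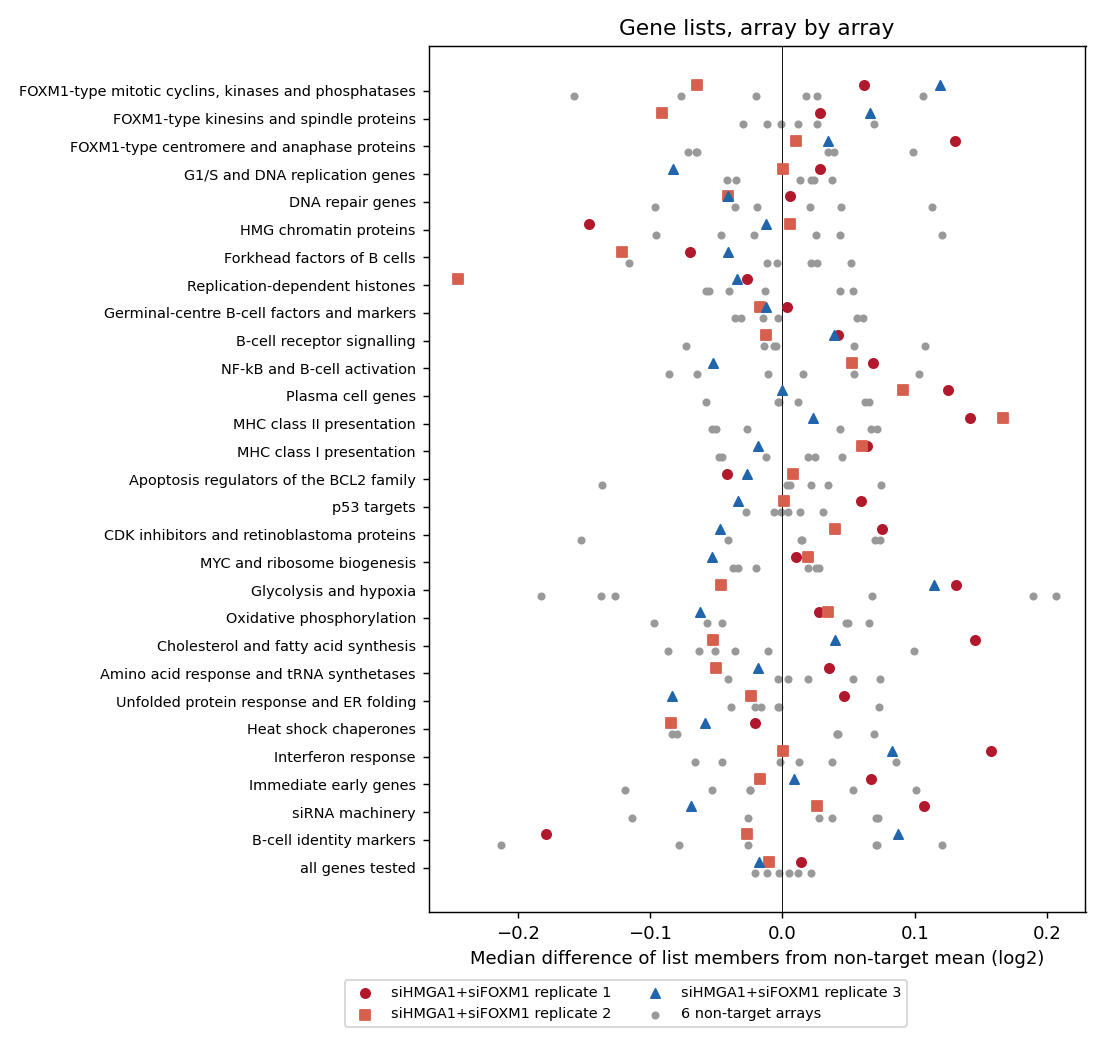
Median difference of each gene list from the mean of the 6 non-target arrays (horizontal axis, log2), with 1 symbol per siHMGA1+siFOXM1 array above the non-target arrays in grey. The 3 mitotic lists at the top overlap the controls, with pair arrays between -0.09 and 0.13, and all genes measured lie within 0.03 of 0.

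Genes of DNA replication and repair gave a similar picture. Among 36 genes of the G1/S transition and DNA replication, 0 passed, 14 were positive and 22 negative, with a median of -0.03. RRM2, the small subunit of ribonucleotide reductase, read 7.18, 7.21 and 7.39 on the pair arrays, against 7.45 to 7.83 on the controls, with no overlap (-0.34, SE 0.11, adjusted p 0.417). These readings lie near the lower limit of the scale. MCM10, a replication initiation factor, read 9.44, 9.19 and 9.25, against 9.41 to 9.68 (-0.26, adjusted p 0.469). Among 16 repair genes 0 passed (7 positive, 9 negative, median -0.01), and BRCA1 was at -0.21 (adjusted p 0.593). The 6 replication-dependent histones measured were 1 positive and 5 negative, with a median of -0.12 and 0 called. Histone H2BC12 was at -0.19 (adjusted p 0.620).

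No relative of either target passed the threshold. Of 10 high mobility group proteins measured, HMGA1 passed and 3 were positive and 7 negative, with a median of -0.08. Of 11 forkhead factors of B cells, 0 passed (3 positive, 8 negative, median -0.05). FOXK1, a forkhead repressor, was at -0.17 (adjusted p 0.612).

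No B-cell gene passed the threshold. Of 25 germinal-centre factors and markers 0 passed (15 positive, 10 negative, median 0.01). EZH2, the histone methyltransferase of the Polycomb complex, read 10.12, 9.77 and 9.42 on the pair arrays, against 9.08 to 9.77 on the controls (0.34, SE 0.13, adjusted p 0.533), with replicate 1 well above the controls, replicate 2 at their highest reading and replicate 3 within them. Of 22 genes of B-cell receptor signalling 0 passed (median -0.02), and BTK read 7.28, 7.55 and 8.01, against 7.79 to 8.12 (-0.30, adjusted p 0.491). CD86, the costimulatory ligand of CD28, read 11.46, 11.50 and 11.13, against 10.93 to 11.30 (0.25, adjusted p 0.488). Replicates 1 and 2 lay outside the controls in BTK and CD86 and replicate 3 within them.

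Antigen presentation by MHC class II had the highest list median of the lists with at least 10 genes measured, 0.10, with 13 of 17 genes positive and 0 called. Its list medians on the pair arrays were 0.14, 0.17 and 0.02, against -0.05 to 0.07 on the controls, so that replicate 3 overlapped them. HLA-DRA, the alpha chain of HLA-DR, read 13.89, 13.77 and 13.54, against 13.38 to 13.66 (0.22, adjusted p 0.504). HLA-DPB1, the beta chain of HLA-DP, went the other way, at 7.60, 7.78 and 7.75, against 7.78 to 8.06 (-0.22, adjusted p 0.491). The median of the list was 0.12 in siFOXM1 and 0.05 in siHMGA1, measured from the same controls.

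No apoptosis or stress gene passed the threshold. BCL2L11, the pro-apoptotic BIM, read 7.32, 7.81 and 7.64 on the pair arrays, against 7.17 to 7.32 on the controls (0.34, SE 0.10, adjusted p 0.417), with all 3 arrays above the controls, replicate 1 only just. Its signal is near the lower limit of the scale. PMAIP1, which encodes NOXA, was at -0.25 (adjusted p 0.644). TP53INP1, a p53-induced gene, read 8.71, 8.60 and 8.65, against 8.31 to 8.56 (0.24, adjusted p 0.488), also above all controls. Of 13 regulators of the BCL2 family and of 15 p53 targets 0 passed, and both lists had a median of -0.01. Of 16 heat shock chaperones 3 were positive and 13 negative, with a median of -0.07 and 0 called. The list medians were -0.02, -0.08 and -0.06 on the pair arrays, against -0.08 to 0.07 on the controls. CHORDC1, a cochaperone of HSP90, was at -0.32 (adjusted p 0.506).

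Setting the pair against each single silencing asked what the additional target brought. Against siHMGA1 alone, 0 of 8270 genes were called by limma (0%), and 469 (5.67%) had an unadjusted p under 0.05. The smallest p-values belonged to SNORA37, EPHB4 and EPB41L2. SNORA37, a small nucleolar RNA, read 6.95, 6.96 and 7.11 in the pair, against 7.59, 7.28 and 7.44 in siHMGA1 (-0.43, SE 0.09, adjusted p 0.231). EPB41L2, a membrane-skeleton protein, read 7.64, 7.61 and 7.11, against 6.94, 7.06 and 7.02 (0.45, SE 0.10, adjusted p 0.254). Both lie near the lower limit of the scale. Without pair replicate 3, 6 genes were called in this comparison. Against siFOXM1 alone, HMGA1 was the 1 gene called (0.0121%), with 548 (6.63%) at an unadjusted p under 0.05. That count became 34 without siFOXM1 replicate 3, 7 without pair replicate 3 and 4 without siFOXM1 replicate 1.

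Non-additivity was taken as the change of the pair less the sum of the changes of both single silencings. It was past the threshold in 1 gene (0.0121%), with 445 (5.38%) at an unadjusted p under 0.05. The gene was EIF3CL, a near-identical copy of the translation initiation factor gene EIF3C, so that its probe may read both. It read 7.37, 7.23 and 7.34 in the pair, 7.77, 7.66 and 7.80 in siHMGA1 and 7.65, 8.06 and 7.60 in siFOXM1, against a lowest of 7.27, a median of 7.35 and a highest of 7.69 on the non-target arrays. Every array of both single silencings was above every pair array. Pair replicates 1 and 3 lay within the range of the controls and replicate 2 just below it. The non-additive term was -0.80 (SE 0.15, adjusted p 0.0272). The call was lost in 12 of 25 alternatives, with adjusted p-values up to 0.528.

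The next genes by p for non-additivity did not pass. MSL2, a ubiquitin ligase of the male-specific lethal complex, read 7.95, 8.03 and 8.32 in the pair, 7.63, 7.84 and 7.76 in siHMGA1 and 7.62, 7.21 and 7.68 in siFOXM1, against 7.69 to 8.06 in the controls (0.78, SE 0.17, adjusted p 0.113). DLST, a subunit of the 2-oxoglutarate dehydrogenase complex, read 8.16, 8.0 and 7.93 in the pair, 7.63, 7.59 and 7.60 in siHMGA1 and 7.75, 7.18 and 7.59 in siFOXM1, against 7.66 to 7.94 (0.72, SE 0.16, adjusted p 0.170). In both genes every pair array was above every array of either single silencing. For the targets themselves, the term was 0.41 for HMGA1 (SE 0.17, adjusted p 0.849) and 0.15 for FOXM1 (SE 0.13, adjusted p 0.950).

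**Figure D5:**
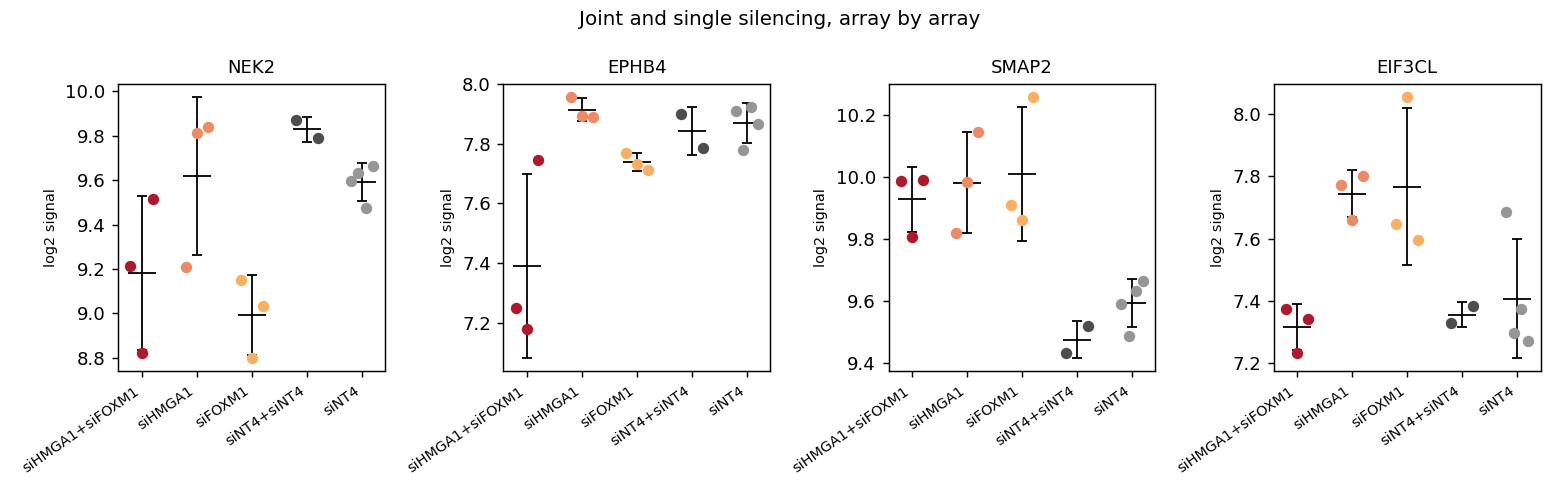
Log2 signal (vertical axis) of NEK2, EPHB4, SMAP2 and EIF3CL on each array of joint and single silencing and of the 2 non-target groups, with bars for the mean and SD. NEK2 is below the controls on all siFOXM1 arrays, on siHMGA1+siFOXM1 replicates 1 and 2 and on siHMGA1 replicate 1. SMAP2 is at 9.81 or above in all 3 silencings. EIF3CL is at 7.60 or above in the single silencings and at 7.37 or below in the pair.

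The 2 pairs with siHMGA1 that were compared here, siHMGA1+siFOXM1 and siHMGA1+siATF5, differed in probes for ribosomal RNA. A further pair of the series, siHMGA1+siTFDP1, was not part of this comparison. Against siHMGA1+siATF5, 3 genes were called (0.0363%), and 1177 (14.2%) had an unadjusted p under 0.05. RNA28SN5, a 28S ribosomal RNA gene, read 12.87, 12.93 and 12.78 in siHMGA1+siFOXM1, against 11.89, 12.32 and 11.99 in siHMGA1+siATF5 (0.79, SE 0.12, adjusted p 0.000386). With the mean of its 2 probes the change was 0.51 (adjusted p 0.184). RNA18SN5, an 18S gene, read 11.09, 11.23 and 11.10, against 9.91, 10.39 and 10.19 (0.97, SE 0.15, adjusted p 0.000457). SNORD3D, a copy of the U3 small nucleolar RNA that takes part in ribosomal RNA processing, read 8.97, 9.15 and 9.45, against 9.86, 10.00 and 10.01 (-0.77, SE 0.15, adjusted p 0.0124).

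The groups did not overlap in any of the 3 genes. On the 6 non-target arrays RNA28SN5 read 12.50 to 12.89, RNA18SN5 10.67 to 11.01 and SNORD3D 9.22 to 9.90, so that all siHMGA1+siATF5 arrays lay below the controls in the ribosomal RNA probes. Only the difference between the 2 pairs was tested. All 3 have near-identical copies, so their probes may read several genes. Against the 6 non-target arrays the same genes were at 0.16, 0.25 and -0.44 in siHMGA1+siFOXM1, with adjusted p-values of 0.699, 0.620 and 0.417. Without pair replicate 3 this comparison gave 453 calls, and it gave 5 without siHMGA1+siATF5 replicate 1. SNORD3D lost its call in 6 of 15 alternatives, RNA28SN5 in 2 and RNA18SN5 in 1.

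The arrays carried the markers of a B-cell line. Of 6 B-cell identity markers with a probe, 5 were above background on all 9 pair and non-target arrays. The exception was PAX5, above background on none of them, with a mean of 6.84 on the pair and 6.92 on the controls. MS4A1, the CD20 antigen, was at -0.15 and CD79A, a chain of the B-cell receptor, at 0.12 (adjusted p 0.704 and 0.724). Above background on none of these arrays were 9 of 10 T-cell markers, 8 of 9 myeloid markers, and 9 of 10 stromal and epithelial ones. The exceptions were LCK and VIM, which were above background on all 9, and FCGR3A, on 8. The mean level over each whole list was 7.01 to 7.07 on the pair and 7.02 to 7.07 on the controls for T-cell markers, 7.03 to 7.08 and 7.01 to 7.11 for myeloid markers, and 7.22 to 7.26 and 7.18 to 7.27 for stromal and epithelial markers. In these bulk RNA samples, fewer cells with a transcript and less of it per cell cannot be told apart. One array of the series outside these groups, siTFDP1+siATF5 replicate 3, stood apart, with a median correlation of 0.764 with the others, where the other 44 had 0.974 to 0.992, and it was left out of the fit.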

How the data were processed

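Total RNA from 45 SUDHL6 samples was amplified, labelled with biotin and read on Illumina HumanHT-12 arrays, 1 per sample. The values used were the authors' deposited log2 table of 45013 probes (6.28 to 16.28). Background correction, normalization and software are not stated by the labels or headers, and differences near the lower limit may be compressed. Another deposited table, of 45 signal and 45 detection columns, was not used, because no label ties its 90 columns to samples. The design had assumed raw intensities, and the log2 table took their place.

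Groups and replicate numbers came from the titles. A probe counted as above background at 0.5 log2 over the array median on at least 3 of 44 arrays. The platform annotation gave 1 symbol to 28746 probes, several to 8 and none to 16259. No symbol differed from RefSeq. There were 13679 probes above background, 10644 of them with 1 symbol. Each of 8270 genes was represented by its probe of highest mean. limma 3.58.1 in R 4.3.3 fitted group means (lmFit, eBayes, two-sided, Benjamini-Hochberg over all genes, threshold 0.05, no fold threshold), with the 4 siNT4 and 2 siNT4+siNT4 arrays sharing a mean except where siNT4+siNT4 is named. The procedure was checked on simulated data.

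Named genes were the targets, those past the threshold, up to 5 in each direction by smallest p against the 6 controls, 2 per list, and up to 3 by smallest p in other comparisons. CCNB2, PLK1 and CDC20 were added after their values were seen. The members and the 31 gene lists were chosen with earlier results of these data known. Deviations of same-numbered pair and siNT4 arrays correlated at 0.21, 0.11 and 0.22, and arrays of another number correlated up to 0.21, 0.14 and 0.40 with them. With siFOXM1 the same number gave 0.12, 0.30 and 0.45, and another number up to 0.02, 0.07 and -0.17. With siHMGA1 these were 0.30, -0.33 and 0.07, and up to -0.10, 0.26 and 0.56. With siHMGA1+siATF5 they were 0.30, -0.12 and 0.32, and up to -0.18, 0.24 and 0.27. The main fit held no term for replicate number, which entered as a block only among the alternatives. With the replicate block the count against the controls stayed at 1. Alternatives changed the arrays fitted, controls, filter, normalization, covariate, probe choice, block, array weights and left out each replicate. Promoter sequences are RefSeq's (GRCh38.p14). The number of arrays limits the precision.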

Additional observations from a re-analysis of the deposited data

Results flagged for a closer look

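In 103 groups of arrays examined, 6 had a single array far from the others. The groups share arrays, and how many to expect was not tested. In E2F4 siNT4 replicate 1 read 10.02, whereas the other 5 non-target arrays read 10.27 to 10.40. In ACLY the same array read 11.48, with the others at 11.24 to 11.33, and in EIF3CL it read 7.69, with the others at 7.27 to 7.38. In SNORA37 siNT4+siNT4 replicate 3 read 7.07, with the others at 7.23 to 7.29. The median of the BCL2 family list was -0.14 on siNT4 replicate 1, with 0.00 to 0.07 on the other controls. That array was also the control farthest from the mean of the others, at 0.143 log2 per gene, with 0.113 to 0.118 on the rest. The median of the unfolded protein response list was 0.0730 on siNT4 replicate 2, with the others from -0.04 to 0.00.

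EIF3CL was also the gene whose effect of silencing 1 target differed with the other target by a test of that difference, with a non-additive term of -0.80 log2.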

How the results depend on the processing

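The number of genes called is small under most alternatives, and single arrays move it. Against the 6 non-target arrays 1 gene was called, 2 with quantile normalization and 2 with the percentage of probes above background as a covariate, each time with SMAP2 added. Leaving out 1 array gave 1 to 77, the 77 without pair replicate 3, and 27 with the replicate block and without that array, an alternative chosen after seeing the data. Against siNT4+siNT4 1 gene was called, 0 with all 45 arrays, and 1 to 60 on leaving out 1 array. Against siHMGA1 the count was 0, and 0 to 6 on leaving out 1 array. Against siFOXM1 it was 1, with 3 under no filter on dim probes, 4 with quantile normalization, 4 with the covariate, and 1 to 34 on leaving out 1 array. Against siHMGA1+siATF5 the count was 3, with 1 on all 45 arrays, 1 with only the groups compared, 8 with the replicate block and 15 with array weights. On leaving out 1 array it was 2 to 453, with the 453 coming without pair replicate 3. For non-additivity it was 1, with 0 on all 45 arrays, with only the groups compared, with siNT4 alone as control, with no filter, with the stricter filter and with array weights, and 0 to 4 on leaving out 1 array. The cause was not tested. The replicate block changed no other count (1, 1, 0, 1 and 1 genes against the controls, siNT4+siNT4, siHMGA1, siFOXM1 and for non-additivity).

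For 64 genes named against the 6 controls, 1383 values were recomputed. Of these, 1365 kept direction and side of the threshold, 17 came to pass it, 0 reversed a call, 0 lost one, and 1 moved to a positive sign without a call (CD14, 0.02 without pair replicate 1). HMGA1 ranged from -1.22 to -1.13 and FOXM1 from -0.34 to -0.19, with FOXM1's adjusted p between 0.0827 and 1.00. Signals near the lower limit of the scale, such as those of EIF3CL, SNORA37 and OR56B1, have little room above background.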

Other observations

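Glycolysis and hypoxia genes varied among the non-target arrays themselves. The median of the 28 genes measured was 0.13, -0.05 and 0.11 log2 on the siHMGA1+siFOXM1 arrays, against 0.19, -0.14, 0.07 and 0.21 on siNT4 replicates 1 to 4 and -0.13 and -0.18 on the 2 siNT4+siNT4 arrays. Against the 6 controls the list had 20 positive and 8 negative changes with a median of 0.05 and 0 called, and its median against siNT4+siNT4 alone was 0.19. It was 0.25 in siFOXM1 and 0.11 in siHMGA1, and the median non-additive term was -0.33, where that of all genes was 0.01. ENO1, the glycolytic enolase, read 13.79, 13.62 and 13.70 in the pair, against 13.41 to 13.66 in the controls (0.16, adjusted p 0.612). ADM, which encodes the hypoxia-induced peptide adrenomedullin, read 7.68, 7.19 and 7.11, against 6.96 to 7.21 (0.26, adjusted p 0.489).

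Among mitochondrial genes, SDHC, a membrane subunit of succinate dehydrogenase, read 7.60, 7.61 and 7.58 in the pair, against 7.72 to 8.02 in the controls, below all of them (-0.30, SE 0.11, adjusted p 0.489). NDUFV2, a subunit of complex I, was at 0.25 (adjusted p 0.556). Of 32 genes of oxidative phosphorylation 0 passed, 18 were positive and 14 negative. ACLY, which makes cytosolic acetyl-CoA for lipid synthesis, was at 0.18 (adjusted p 0.606), and 14 of 21 genes of cholesterol and fatty acid synthesis were positive, with 0 called.

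Among immediate early genes, FOSB, a partner of JUN in AP-1, read 7.17, 6.93 and 7.29 in the pair, against 7.31 to 7.61 in the controls (-0.31, SE 0.10, adjusted p 0.474). FOSB too lies near the lower limit of the scale. Among plasma cell genes, TNFRSF17, the receptor BCMA, read 10.06, 9.95 and 9.98, against 9.61 to 9.93 (0.19, adjusted p 0.598). In the siRNA machinery, TSN, the translin subunit of C3PO, read 7.08, 7.34 and 8.13, against 7.65 to 8.05 (-0.34, SE 0.17, adjusted p 0.614), low on replicates 1 and 2 and above all controls on replicate 3. None of these lists had a gene past the threshold.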
